A study of Mus musculus with 4 samples.

Results

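The collagen genes were described in 4 sorted fractions of cells labelled mouse embryonic fibroblasts (MEFs). These are connective tissue cells of the embryo in which introduced transcription factors can set off a return to pluripotency. The members were all genes on the array whose symbol reads Col, a type number, the letter a and a chain number. This gave 42 of the 18193 genes named on the array, read by 82 probe sets. Throughout, a gene counts as on the array when a probe set was annotated with its symbol alone. Genes without such a probe set were not read. Where a gene had several probe sets, the one brightest on average was used. The RefSeq gene table lists 44 symbols of this form. The other two, Col6a6 and Col28a1, were not analysed here.

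The fractions were sorted after the cells had been fixed, permeabilized and stained for Oct4, Klf4 and EpCAM. They were Oct4- cells, Oct4+Klf4- cells, Oct4+Klf4+EpCAM- cells and Oct4+Klf4+EpCAM+ cells, each read on 1 array. All 4 are labelled MEFs, with no strain, day of sorting, introduced factor or delivery named, and with no statement that the Oct4- cells shared a culture with the rest. Differences from the Oct4- array and a difference between cultures therefore cannot be told apart. Every level below is a log2 value of 1 array, so no difference has a replicate check or a test, and precision is limited by there being so few arrays.

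Collagens are secreted proteins whose chains wind around each other in a helix built on a repeat that starts with glycine. Fibrillar collagens (types I, II, III, V, XI and others) assemble into the tensile fibrils of connective tissue. Type IV forms the network of basement membranes, type VI forms beaded filaments around cells, and FACIT collagens (fibril-associated collagens with interrupted helices) bind to the surface of fibrils. Transmembrane collagens stay anchored in the plasma membrane. Fibroblasts are the main makers of types I, III, V and VI, and loss of fibroblast matrix is a known part of the change toward an epithelial, pluripotent state.

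A gene was taken as measured when 1 array or more put it at 4.53, the median over the whole table, or above. Of the 42 collagen genes, 23 did so, and 19 did not. Nearest to that floor by their highest level were Col2a1, at 4.87, on the measured side and Col25a1, at 4.24, on the other. A difference was called when it amounted to 2-fold or more and the brighter of its levels was at the floor or above. Where the dimmer level was no higher than 2.94, the brightest reading of 27 probe sets for bacterial controls, the fold was taken against that ceiling and is written "at least".

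At each gate more collagen genes were called lower than higher, and most were not called. From Oct4- to Oct4+Klf4- cells (the Oct4 step), 12 of the 42 were called lower (28.6%) and 3 higher (7.14%). Over all 18193 genes, 3.04% were called lower there and 2.25% higher. From Oct4+Klf4- to Oct4+Klf4+EpCAM- cells (the Klf4 step), 12 were again lower and 3 higher, against 4.32% lower and 5.30% higher over all genes. From the EpCAM- to the EpCAM+ cells (the EpCAM step), 7 were lower (16.7%) and 0 higher, against 1.12% and 1.95% over all genes.

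Between the ends, Oct4- and Oct4+Klf4+EpCAM+ cells, 19 of the 42 collagen genes were lower (45.2%) and 1, Col15a1, was higher. The shares over all genes were 6.77% lower and 7.46% higher. The median log2 difference between the ends was -0.48 over the 42 collagen genes and 0.03 over all genes. Among the 23 measured collagen genes, 17 had their highest level in the Oct4- cells, and 11 were lower at each of the 3 gates by any amount. Among all 11428 measured genes, 24.3% were highest in the Oct4- cells and 10.9% were lower at every gate, against 73.9% and 47.8% of the measured collagens. The steps share arrays, so a high reading on an array in the middle raises the difference leading to it and lowers the next one.

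**Figure D1:**
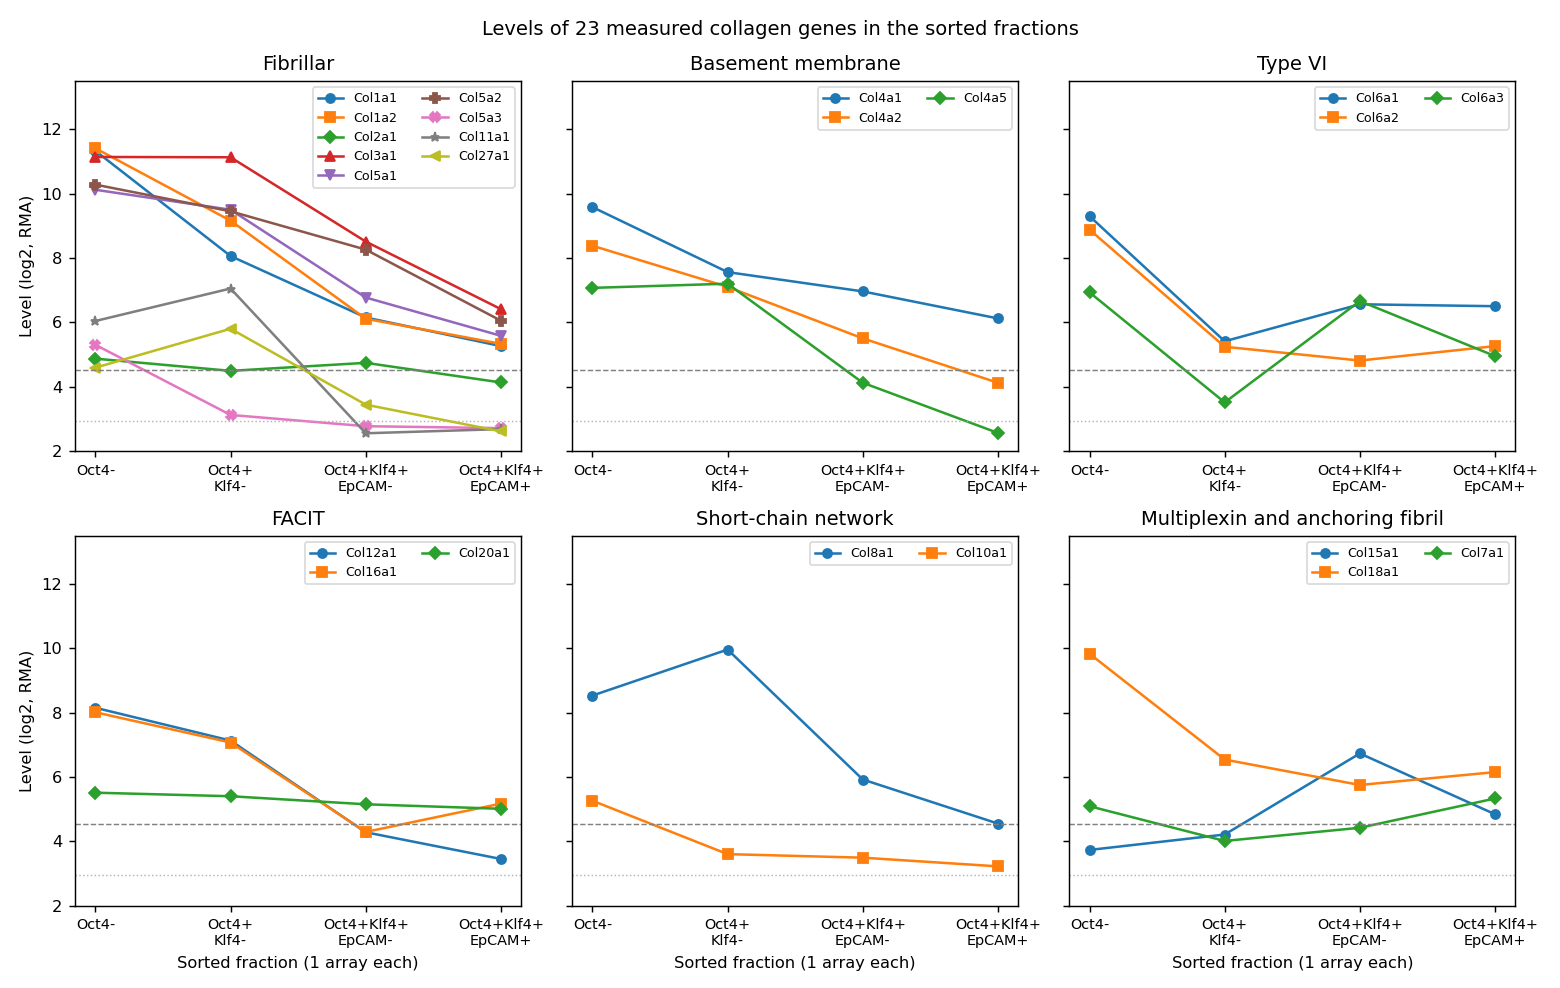
Log2 level of each measured collagen gene (y axis) in the 4 sorted fractions (x axis, 1 array each), in a panel per class, with the floor of 4.53 as a dashed line and the background ceiling of 2.94 as a dotted line. Col1a1 and Col1a2 go from above 11 to below 5.5, while the type VI genes drop at the first gate and Col6a3 returns at the second.

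In bulk samples such as these, fewer cells of a type and less RNA per cell cannot be told apart. Of 10 fibroblast markers, 8 reached the floor in the Oct4- cells and 7 in the EpCAM+ cells, and the mean of their log2 levels was 7.77, 7.15, 6.17 and 5.45 in the order of the fractions. Pdgfra and Fap stayed below the floor on all 4 arrays. Between the ends, all 8 measured fibroblast markers were called lower, among them Thy1 (8.47-fold) and Vim (8.73-fold). That was 80% of the 10, against 6.77% of all genes, and 0 were higher, against 7.46%. At the Oct4 step 1 of the 10 was lower and 1, Thy1, was 2.69-fold higher, beside 3.04% lower and 2.25% higher over all genes. Of 5 leukocyte markers, Ptprc and Tyrobp were below the floor on all arrays. Of the other leukocyte markers, Cd68 was 3.52-fold and Cd14 2.68-fold lower at the Oct4 step, and Laptm5 was 28-fold and Cd14 3.13-fold higher at the Klf4 step. The mean log2 level of the 5 was 4.18, 3.76, 5.26 and 5.13. The part of these markers in the collagen differences was not tested.

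Fibrillar collagens had 9 of 11 genes measured, and 8 of the 11 were lower between the ends (72.7%), against 6.77% of all genes. Col1a1 and Col1a2 encode the chains of type I collagen, the main fibril former of skin, tendon and bone. Col1a1 had log2 levels of 11.33, 8.06, 6.15 and 5.26 in Oct4-, Oct4+Klf4-, Oct4+Klf4+EpCAM- and Oct4+Klf4+EpCAM+ cells, the order used below. Col1a2 had levels of 11.41, 9.16, 6.11 and 5.33. Both were thus lower at every gate, though at the EpCAM step by only 1.85-fold and 1.72-fold, which was not called. Between the ends they were 66.8-fold and 68.0-fold lower. These were the 6th and 5th largest falls among the 11428 measured genes.

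On their brightest probe sets the chains of type I had nearly equal differences between the ends and unequal ones at the steps. Col1a1 differed most at the Oct4 step, where it was 9.59-fold lower, and was 3.76-fold lower at the Klf4 step. Col1a2 was 4.79-fold lower at the Oct4 step and 8.27-fold lower at the Klf4 step. The gap between the chains' differences was -1.0 at the Oct4 step and 1.14 at the Klf4 step (log2, Col1a1 minus Col1a2), and 0.03 between the ends. The other probe set of Col1a1 gave -3.02 and -1.66 at these steps, and the other one of Col1a2 that reached the floor gave -2.57 and -3.33, the same order of steps as in the brightest. The third probe set of Col1a2, which stayed below the floor, gave -1.70 and 0.05. With it averaged in, Col1a2 differed by -2.18 and -2.11 at these steps, so that its larger difference was no longer at the Klf4 step, and by -4.69 between the ends against -5.80 for Col1a1.

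Col3a1 encodes type III collagen, which forms fine fibrils together with type I. Its levels were 11.14, 11.13, 8.51 and 6.41. It differed by 1.01-fold at the Oct4 step, where both type I genes were lower, and was 6.13-fold and 4.29-fold lower at the next gates. The bases upstream of the start of Col1a2 and of Col3a1 are shown because these genes encode fibril partners that parted at the first gate. Each is the 250 bases before the annotated start, 5′ to 3′, from the RefSeq promoter table (build GRCm38.p6), at chr6:4505368-4505617 for Col1a2 and chr1:45311288-45311537 for Col3a1, both on the + strand. Capitals mark any of 5 short motifs, read on either strand, which can overlap. CCAAT is the box bound by the factor NF-Y. The GC box bound by Sp1 is spelled GGGCGG here. A core shared by sites of the Klf family is spelled CACCC. The box bound by Snail and Zeb factors is spelled CACCTG. The TATA box is spelled TATAAA.
Col1a2: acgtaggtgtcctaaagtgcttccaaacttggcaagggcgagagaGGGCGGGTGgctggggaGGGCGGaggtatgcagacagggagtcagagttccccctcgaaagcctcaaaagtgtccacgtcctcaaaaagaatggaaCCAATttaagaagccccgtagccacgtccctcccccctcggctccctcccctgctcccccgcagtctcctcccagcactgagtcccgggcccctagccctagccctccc
Col3a1: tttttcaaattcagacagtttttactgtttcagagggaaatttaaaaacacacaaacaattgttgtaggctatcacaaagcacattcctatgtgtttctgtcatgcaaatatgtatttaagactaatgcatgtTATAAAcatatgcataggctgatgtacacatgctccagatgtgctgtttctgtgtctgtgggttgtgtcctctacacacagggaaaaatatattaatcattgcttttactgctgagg

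The Col1a2 stretch held 1 CCAAT, 2 GC boxes and 1 CACCC, of which the last overlapped a GC box, and 62.0% of its bases were G or C. The Col3a1 stretch held 1 TATAAA and none of the rest, with 35.2% G or C, against a median of 52.0% over 27025 promoters. Such a match is a description of letters, not a binding site.

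Col5a1 and Col5a2 encode chains of type V collagen, which sits inside type I fibrils and limits their width. Col5a1 had levels of 10.12, 9.50, 6.77 and 5.58, and Col5a2 of 10.28, 9.45, 8.26 and 6.05. Neither reached 2-fold at the Oct4 step. At the Klf4 step Col5a1 was 6.63-fold lower and Col5a2 2.28-fold. At the EpCAM step the order was the other way, with 2.27-fold for Col5a1 and 4.61-fold for Col5a2, though the 3 probe sets of Col5a1 spread from -2.23 to -0.48 there.

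The less abundant fibrillar genes split at the first gate. Col5a3, a further type V chain, had levels of 5.30, 3.12, 2.77 and 2.71 and was 4.54-fold lower at the Oct4 step. Col11a1 and Col27a1, which encode fibrillar collagens best known from cartilage, were instead higher there. Col11a1 had levels of 6.04, 7.05, 2.55 and 2.68, a 2.02-fold higher level in Oct4+Klf4- cells followed by an at least 17.3-fold lower one. Its second probe set stayed below the floor at 2.90, 3.75, 2.19 and 2.09, with the same directions at both gates. Col27a1 had levels of 4.59, 5.80, 3.44 and 2.61, or 2.30-fold higher and then 5.13-fold lower. Its other probe set, with levels of 5.09, 5.09, 3.05 and 3.13, showed only the second of these differences.

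Col2a1, the type II collagen of cartilage, stayed between 4.13 and 4.87. Col11a2 and Col24a1 did not reach the floor, with highest levels of 3.42 and 2.35. Of 7 cartilage markers, 6 were below the floor everywhere, including Acan, Comp and Matn1. The exception, Sox9, had levels of 5.40, 3.99, 3.72 and 3.90. Of 4 bone markers on the array, looked up because bone is rich in type I collagen, Ibsp, Sp7 and Dmp1 were below the floor, and Alpl had levels of 4.68, 8.08, 6.83 and 7.15.

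**Figure D2:**
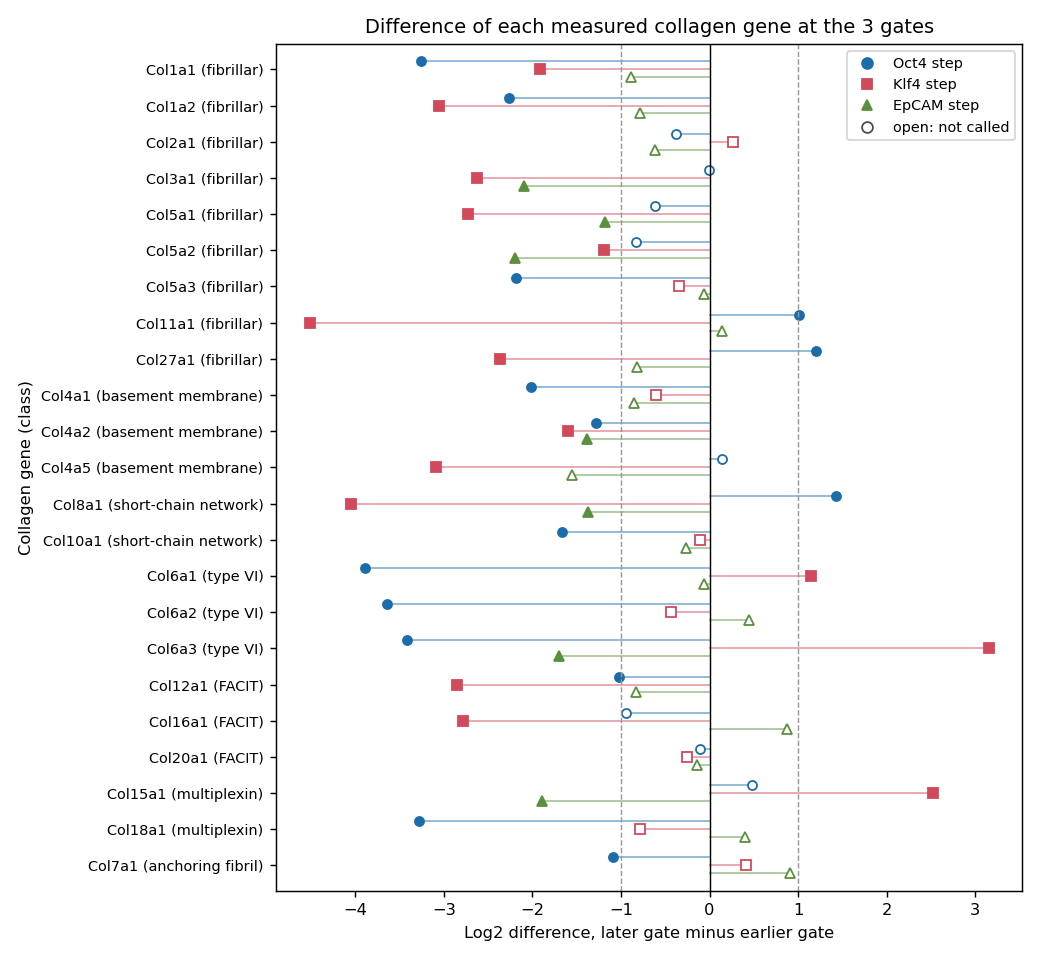
Log2 difference (x axis) of each measured collagen gene (y axis, with its class) at the Oct4, Klf4 and EpCAM steps, as filled symbols where called and open ones where not, with dashed lines at a 2-fold difference. The type VI genes, Col18a1 and the fibrillar gene Col1a1 lie far to the left at the Oct4 step, and most fibrillar genes do so at the Klf4 step.

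Type IV collagen, the scaffold of basement membranes, had 3 of 6 genes measured, each lower between the ends. That was 50% of the 6, against 6.77% of all genes. Col4a1 and Col4a2 encode the chains of the common form and lie head to head on opposite strands with no protein-coding gene between them. Col4a1 had levels of 9.58, 7.56, 6.96 and 6.12, and Col4a2 of 8.38, 7.10, 5.50 and 4.12. Both were lower at each gate, but in different proportions. Col4a1 was 4.05-fold lower at the Oct4 step and 1.51-fold at the Klf4 step, while Col4a2 was 2.43-fold and then 3.04-fold lower. At the EpCAM step Col4a1 was 1.80-fold and Col4a2 2.60-fold lower. Between the ends the folds were 11.0 and 19.2.

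Col4a5 belongs to the chain set of kidney and other specialised basement membranes. Its levels were 7.07, 7.20, 4.12 and 2.56. It did not differ by 2-fold at the Oct4 step and was 8.49-fold lower at the Klf4 step, with -3.09 and -3.23 in its 2 probe sets. Its head-to-head neighbour Col4a6 was below the floor on every array, with levels of 3.19, 4.20, 2.76 and 3.04. Col4a3 stayed at or below 2.57 and Col4a4 at or below 4.14. Of 7 markers of parietal endoderm, a cell type rich in type IV collagen, only Lamb1 and Sparc reached the floor, while Lama1, Sox17, Gata4, Gata6 and Sox7 did not. Sparc, which binds collagen, was 8.64-fold lower between the ends.

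Type VI collagen is built from the chains of Col6a1, Col6a2 and Col6a3, and anchors cells to the surrounding matrix. The 3 genes were lower together at the Oct4 step, where 3.04% of all genes were lower, and parted at the Klf4 step. Col6a1 had levels of 9.30, 5.41, 6.56 and 6.50, Col6a2 of 8.88, 5.24, 4.81 and 5.26, and Col6a3 of 6.93, 3.51, 6.66 and 4.95. All were highest in the Oct4- cells, and Col6a1 and Col6a3 were lowest in the Oct4+Klf4- cells.

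At the Oct4 step the log2 differences of these chains were -3.89, -3.64 and -3.42, within 0.47 of each other. At the Klf4 step they were 1.15, -0.43 and 3.15, with a gap of -3.58 between Col6a2 and Col6a3 (Col6a2 minus Col6a3). Col6a3 was then 3.26-fold lower in the EpCAM+ cells, whereas Col6a1 and Col6a2 differed by 1.04-fold and 1.36-fold. Between the ends Col6a1 was 6.96-fold, Col6a2 12.3-fold and Col6a3 3.93-fold lower. Only Col6a2 had a second measured probe set, which gave -3.14 at the Oct4 step and -0.01 at the Klf4 step. Both probe sets of Col6a2 have an _a_ or _x_ mark in their ID, a sign that they can read several transcripts. The higher levels of Col6a1 and Col6a3 at the Klf4 step each rest on 1 probe set. That of Col6a1, 6.56, was still well below its 9.30 in the Oct4- cells.

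The 250 bases before the starts of these 3 genes are shown because they moved as a group at the first gate and apart at the second. They lie on the - strand at chr10:76726045-76726294 (Col6a1), chr10:76623631-76623880 (Col6a2) and chr1:90843972-90844221 (Col6a3), and capitals mark the same 5 motifs.
Col6a1: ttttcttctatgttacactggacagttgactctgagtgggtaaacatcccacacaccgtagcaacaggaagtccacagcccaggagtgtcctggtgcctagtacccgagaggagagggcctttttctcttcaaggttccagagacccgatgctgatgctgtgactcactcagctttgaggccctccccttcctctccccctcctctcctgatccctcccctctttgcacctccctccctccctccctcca
Col6a2: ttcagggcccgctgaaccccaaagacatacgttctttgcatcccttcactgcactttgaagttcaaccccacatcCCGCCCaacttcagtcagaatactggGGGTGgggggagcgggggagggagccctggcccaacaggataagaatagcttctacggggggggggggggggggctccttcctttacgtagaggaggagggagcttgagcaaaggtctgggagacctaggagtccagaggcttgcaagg
Col6a3: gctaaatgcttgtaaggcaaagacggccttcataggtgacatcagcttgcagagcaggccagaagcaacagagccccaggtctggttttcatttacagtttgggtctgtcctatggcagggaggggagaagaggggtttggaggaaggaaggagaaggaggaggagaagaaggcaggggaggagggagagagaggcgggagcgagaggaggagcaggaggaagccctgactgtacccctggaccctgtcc

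The stretch of Col6a2 held 1 GC box and 1 CACCC, and those of Col6a1 and Col6a3 held none of the 5 motifs. Over 27025 promoters, 33.0% held a GC box, 51.3% a CACCC, 34.5% a CCAAT, 17.1% a CACCTG and 13.0% a TATAAA. Of the 33 collagen genes with an entry in the table, 20 held a GC box (60.6%) and 21 a CACCC (63.6%), 12 a CCAAT, 4 a CACCTG and 5 a TATAAA. No match says only that these letters are not in this window.

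Col6a1 and Col6a2 are next to each other on chromosome 10, and 2 protein-coding genes separate Col6a1 from Col18a1, which was also among the lower genes at the Oct4 step. Col6a3 is on chromosome 1. The remaining type VI genes on the array, Col6a4 and Col6a5, did not reach the floor. Cspg4, which encodes a surface proteoglycan that binds type VI collagen, had levels of 7.84, 4.21, 4.70 and 4.52 and was 12.4-fold lower at the Oct4 step. Antxr1, a collagen-binding protein of the anthrax toxin receptor family, had levels of 8.65, 7.49, 8.52 and 8.16, thus 2.24-fold lower and then 2.04-fold higher.

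FACIT collagens had 3 of 9 genes measured. Col12a1, which bridges fibrils in tissues under tension, had levels of 8.15, 7.13, 4.28 and 3.45, and was 2.03-fold lower at the Oct4 step and 7.21-fold lower at the Klf4 step. Its 4 probe sets were all lower at these gates, but ranged from -1.99 to -0.34 at the first and from -3.39 to -0.72 at the second. Col16a1 had levels of 8.01, 7.07, 4.29 and 5.17 and was 6.86-fold lower at the Klf4 step. Col20a1 stayed between 5.01 and 5.51 and was called in no comparison. These levels rest on 1 probe set with an _s_ mark, and its other probe sets stayed below the floor, at or below 4.25. The type IX genes Col9a1, Col9a2 and Col9a3, partners of type II fibrils in cartilage, were below the floor, as were Col14a1, Col19a1 and Col22a1.

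Col8a1, a short-chain collagen that forms hexagonal networks in vessel walls and in the membrane under the corneal endothelium, was higher at the first gate and lower at the next ones. Its levels were 8.53, 9.96, 5.92 and 4.55. It was 2.70-fold higher in Oct4+Klf4- cells, then 16.5-fold lower at the Klf4 step and 2.58-fold lower at the EpCAM step. Its 3 probe sets ran from 0.93 to 1.43 at the Oct4 step and from -4.36 to -4.01 at the Klf4 step. Col10a1, a gene of hypertrophic cartilage, had levels of 5.26, 3.60, 3.49 and 3.22 and was 3.15-fold lower at the Oct4 step, while Col8a2 was not measured.

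The multiplexins, basement membrane collagens that carry sugar chains, went opposite ways. Col18a1, the source of the fragment endostatin, had levels of 9.83, 6.54, 5.75 and 6.15, and was 9.73-fold lower at the Oct4 step with -3.28 and -3.27 in its 2 probe sets. Col15a1 had levels of 3.73, 4.21, 6.73 and 4.84. It was 5.72-fold higher at the Klf4 step and 3.69-fold lower again at the EpCAM step, and so was highest in the Oct4+Klf4+EpCAM- cells, as no other measured collagen was. Its single probe set leaves this without a second reading. Of 6 endothelial markers, looked up because vessels make Col15a1, 5 were below the floor on all arrays, among them Pecam1, Cdh5 and Kdr. The exception, Tek, had levels of 3.33, 7.49, 9.22 and 8.74. It was 17.9-fold higher at the Oct4 step, where Col15a1 was not called, and 3.32-fold higher at the Klf4 step, and its part was not tested.

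Col7a1, which forms the anchoring fibrils below the epidermis, had levels of 5.09, 4.01, 4.42 and 5.33. It was 2.12-fold lower at the Oct4 step and was the only measured collagen with its highest level in the EpCAM+ cells, where it stood 1.18-fold above the Oct4- cells. Col17a1, the transmembrane collagen of keratinocyte hemidesmosomes, did not reach the floor, with a highest level of 3.72. Of 7 keratinocyte markers, 3 were higher (42.9%) and 0 lower at the Klf4 step, against 5.30% and 4.32% of all genes. The hemidesmosome partner Itgb4 was 11.9-fold, the keratin gene Krt14 8.54-fold and Itga6 2.87-fold higher at the Klf4 step. Krt5 stayed between 4.62 and 4.93 and Dst between 9.04 and 9.49, while the keratinocyte markers Trp63 and Krt15 were below the floor on all arrays.

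None of the 4 transmembrane genes was measured. Their levels lay at or below 3.20 for Col13a1, 3.72 for Col17a1, 3.71 for Col23a1 and 4.24 for Col25a1. Over the 19 collagen genes below the floor, levels ran from 2.18 to 4.24, and 6 of the 19 stayed at or below the background ceiling on every array. A level this low on an array sets no bound on a transcript that the probes read poorly.

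**Figure D3:**
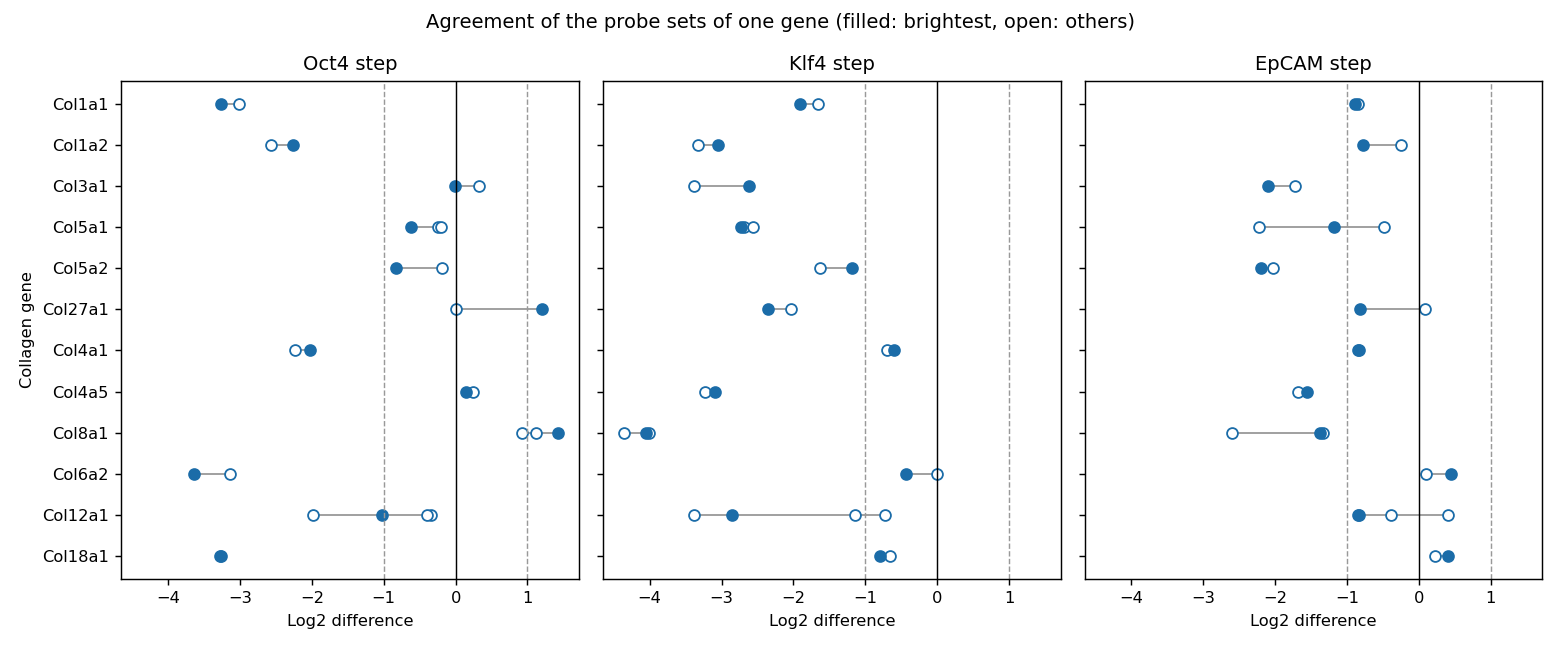
Log2 difference (x axis) at the 3 gates for the probe sets of the 12 collagen genes (y axis) that had 2 or more of them reaching the floor, the brightest one filled and the others open. The probe sets of Col18a1, Col4a1 and Col4a5 nearly coincide, while those of Col12a1 spread widely.

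Probe sets of the same gene gave the one check of measurement scatter within these arrays. For the 12 collagen genes with several measured probe sets, 32 of 33 calls had all of them on the same side of zero. The exception was Col27a1 at the Oct4 step, where the second probe set differed by 0.00. The median range between probe sets of a gene was 0.34 over the 4 comparisons, and the widest was 3.57, for Col12a1 between the ends. Over 5708 genes of all kinds the median SD between probe sets was 0.167, 0.172 and 0.122 at the Oct4, Klf4 and EpCAM steps. This says nothing of how cultures or sorts vary. With all probe sets of a gene averaged, including those below the floor, 4 calls at the Oct4 step were lost. Col11a1, Col12a1 and Col27a1 then differed by 0.93, -0.94 and 0.60, and Col5a3, at -1.56, no longer reached the floor. Between the ends, 2 calls were lost, those of Col5a3 at -1.76 and Col11a1 at -2.08, whose averages there were below the floor. On the same averages the differences between the ends were -4.69 for Col1a2, -4.74 for Col8a1 and -3.38 for Col12a1, and the Klf4 step differences were -3.03 for Col11a1, -2.11 for Col1a2 and -2.03 for Col12a1.

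RNA from fixed cells can be broken, and the RNA here was amplified before hybridisation. The control probe sets of Gapdh differed between the 3′ and 5′ ends by 1.04, 1.3, 1.04 and 0.97 on the log2 scale, and those of Actb by -0.06, -0.05, -0.06 and -0.07. The Oct4+Klf4- array thus had the largest Gapdh difference, while its Actb difference was close to those of the other arrays. On it Col6a1, Col6a3 and Col7a1 had their lowest levels and Col4a5, Col8a1, Col11a1 and Col27a1 their highest. The part of the Gapdh difference in those results was not tested.

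Of 17 genes on the array whose products modify and fold collagen chains, 4 were lower (23.5%) and 1 higher between the ends, beside the 6.77% and 7.46% of all genes given above, and the median log2 difference was -0.68. Serpinh1, the chaperone of the collagen helix, had levels of 10.91, 11.09, 10.23 and 9.83 and was 2.12-fold lower between the ends. P4hb, a subunit of the prolyl hydroxylase that stabilises the helix, stayed between 10.43 and 10.80. Among its catalytic partners P4ha1 did not reach 2-fold, P4ha2 was 4.67-fold lower at the Oct4 step, and P4ha3 was 4.12-fold lower at the Klf4 step. The prolyl 3-hydroxylase family gene P3h3 was 3.50-fold lower at the Klf4 step, whereas Plod1, a lysyl hydroxylase, was 3.07-fold higher there.

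The export list, which includes the transcription factors Creb3l1 and Creb3l2, had 3 of 7 members lower (42.9%) and 0 higher between the ends. Over all genes, 6.77% were lower there and 7.46% higher. The 3 were Creb3l1, Creb3l2 (2.16-fold) and Sec24d, so that Sec24d alone came from the export machinery. Sec24d, a coat protein of the vesicles that carry procollagen out of the endoplasmic reticulum, had levels of 8.0, 7.84, 4.92 and 5.09, and so was 7.54-fold lower at the Klf4 step. Creb3l1, a transcription factor known to activate type I collagen genes in bone, had levels of 6.46, 5.61, 3.68 and 3.29, 9.0-fold lower between the ends. Mia3, the procollagen cargo receptor, stayed between 7.44 and 8.40.

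Of 6 genes of propeptide removal on the array, 1 was lower and 1 higher between the ends (16.7% each), a single gene each way beside 6.77% lower and 7.46% higher over all genes. Bmp1, which cuts the C-propeptide, was 2.37-fold lower, and Pcolce2, which enhances that cut, 2.38-fold higher. Tll1, a relative of Bmp1, had levels of 3.89, 7.24, 6.19 and 4.76 and was 10.2-fold higher at the Oct4 step. Pcolce, the other enhancer, stayed between 10.58 and 11.00.

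The lysyl oxidases crosslink collagen and elastin. Of the 5 genes listed, Loxl2 had no probe set annotated with its symbol alone and was not read. The other 4 were all lower between the ends, against 6.77% of all genes. Each of the 4 was also lower at the Oct4 step, against 3.04% of all genes. Loxl1 had levels of 10.17, 7.61, 4.41 and 3.92, 76.0-fold lower between the ends, the 3rd largest fall among measured genes and larger than those of the type I genes. Lox had levels of 7.70, 5.87, 6.89 and 5.01, which made it 2.03-fold higher at the Klf4 step between lower values on either side. Loxl3 was 7.41-fold and Loxl4 2.05-fold lower between the ends.

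Of 13 collagen receptor and uptake genes on the array, 6 were lower (46.2%) and 0 higher between the ends, against 6.77% and 7.46% of all genes. Ddr1 and Ddr2, receptor kinases that bind fibrillar collagen, were 2.43-fold and 2.61-fold lower, and Mrc2, the receptor that takes up collagen fragments, 5.28-fold. Itga1, a collagen-binding integrin chain, had levels of 4.37, 8.75, 3.52 and 2.77, and so was high in the Oct4+Klf4- cells alone. Its partner Itgb1 did not reach 2-fold in any comparison. Itga2, Itga10, Gp6 and Lair1 were below the floor.

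**Figure D4:**
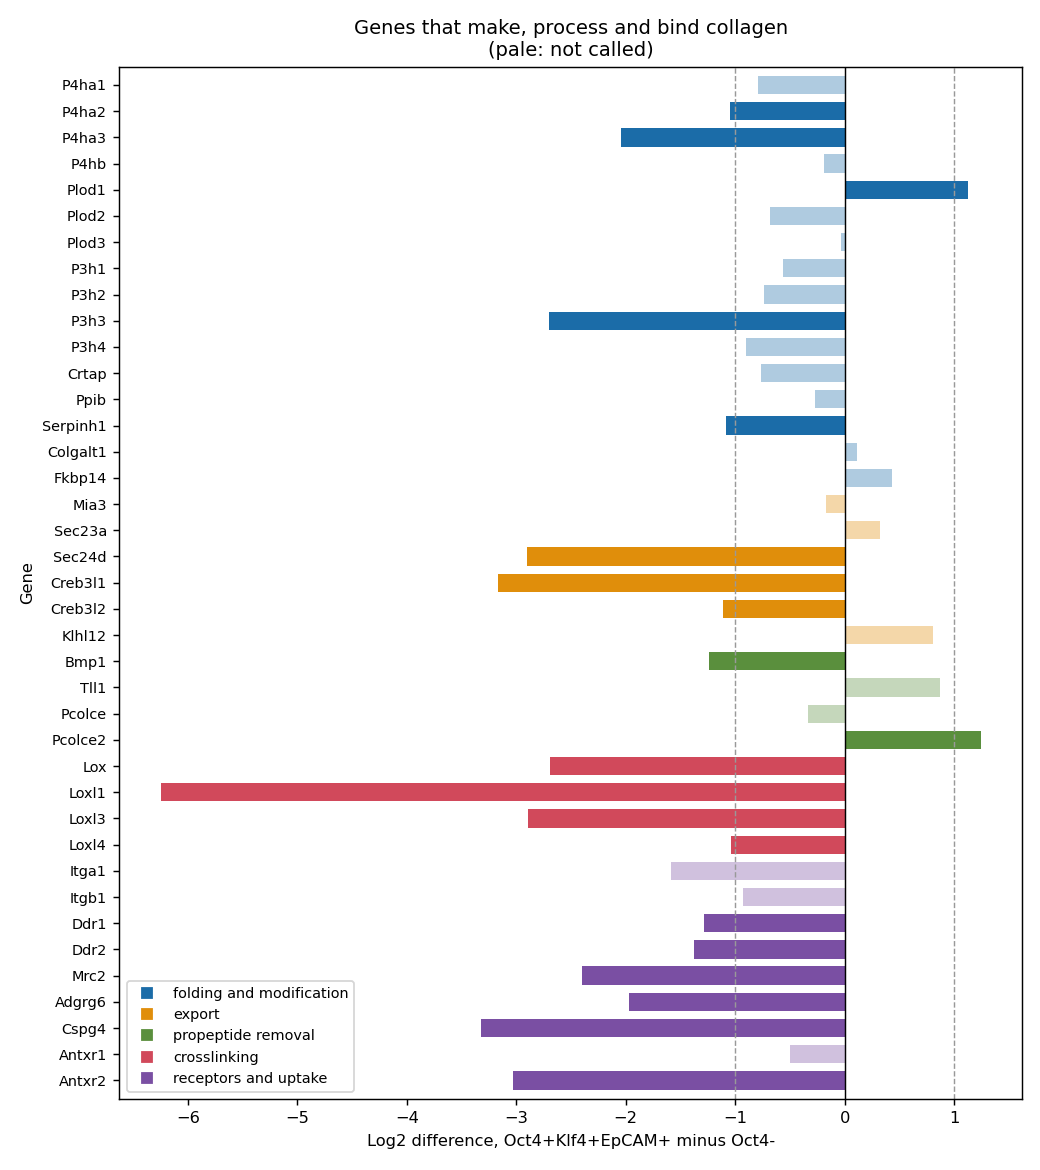
Log2 difference between the ends of the series (x axis, Oct4+Klf4+EpCAM+ minus Oct4-) for the measured genes that make, process and bind collagen (y axis), coloured by list, with pale bars for genes not called and dashed lines at a 2-fold difference. Loxl1, at -6.25, has the longest bar, and most folding genes lie within the dashed lines.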

How the data were processed

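Each of the 4 fractions was read on 1 Affymetrix expression array with 45101 probe sets. The deposited log2 levels, 1 per probe set, were made by the authors with RMA, per the submitters' processing notes. The RMA version was not given in the sources used here. RMA usually corrects background, forces arrays to a common distribution and combines probes by median polish, so a shift shared by most genes would be removed. RNA came from fixed cells with the RecoverAll kit and was amplified with the Ovation Pico WTA kit, per the labels' protocols. No scanner files were used here.

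Genes were named through the platform annotation: 34945 probe sets had 1 gene symbol, and 932 with several were left out. With 1 array per fraction there was no test and no p-value. Array medians were 4.49 to 4.55. Promoter motifs were counted on both strands in 250 bases before the most upstream start of each gene. Every collagen gene on the array could be named, as could members of fixed lists. The members and lists were chosen with earlier results of these data known. The 8 alternatives covered probe sets, floor, size rule and scaling. Python 3.11.15, numpy 2.4.6 and pandas 2.3.3 were used.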

Additional observations from a re-analysis of the deposited data

How the results depend on the processing

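Repeating the scaling, by median centring or by quantile normalization, lost and gained no collagen call in any comparison. The deposited levels had already been scaled by RMA, with array medians of 4.49 to 4.55, so these repeats could change little. With all probe sets of a gene averaged, the Oct4 step had 1 collagen gene higher in place of 3 (Col11a1 and Col27a1 no longer reached 2-fold), and the median of measured collagen genes was -1.60 at the Klf4 step and -0.61 at the EpCAM step, against -1.19 and -0.82. Another setting left out probe sets with an _s_, _x_ or _a_ mark in their ID, a sign that they can read several transcripts. The median of measured collagen genes was then -1.60 at the Klf4 step and -3.67 between the ends, against -1.19 and -3.46. Calls were lost for Col6a2 and Col12a1 at the Oct4 step, Col16a1 at the Klf4 step and Col3a1 at the EpCAM step. Between the ends those of Col6a2 and Col16a1 were lost, as neither gene has an unmarked probe set. With the floor at the 75th percentile, 6.87, there were 0 higher at the Klf4 step and between the ends and 2 lower at the EpCAM step, with medians of -2.26 at the Klf4 step and -4.10 between the ends. Without a floor the medians were -0.11, -0.22, -0.09 and -0.48 in the order of the comparisons, and that of basement membrane genes at the Oct4 step changed sign, from -1.28 to 0.04, because unmeasured genes entered. A 1.5-fold rule gave 2 higher and 11 lower at the EpCAM step. A 3-fold rule gave 0 higher at the Oct4 step and between the ends, where Col15a1 was lost, and 4 lower at the EpCAM step. No paired analysis was possible because each fraction had 1 array, and no array could be left out of a comparison.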

Other observations

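Below the floor, some collagen genes had probe sets that moved with the Oct4+Klf4- array. The second probe set of Col25a1, a collagen of neurons, had levels of 2.29, 3.89, 2.73 and 2.71 in the order of the fractions, while its brightest one stayed between 3.90 and 4.24. Col4a6 had levels of 3.13, 3.86, 2.54 and 2.32 in its second probe set, with the same directions at the Oct4 and Klf4 steps as the brightest. On the same array the neuronal genes Nefl and Nefm had levels of 9.46 and 7.97, against 3.80 and 2.51 in the Oct4- cells. The other neural and Schwann cell genes listed with them did not share this, since Tubb3 had levels of 4.83, 4.53, 8.84 and 9.71 and Sox10 stayed between 4.49 and 4.67. Col6a4 had levels of 2.91, 2.64, 3.78 and 3.83, higher in both Klf4+ fractions without reaching the floor.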
